A study of Mus musculus with 6 samples.

Results

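The genes described here are 35 cell cycle genes chosen by symbol from the 23491 rows of a read count table of brain microglia: 13 that act in or just before S phase, when DNA is copied, and 22 that act in or are expressed towards mitosis, when the copies are separated. All 35 had a row, and all 35 passed the filter on low counts that left 14727 genes for testing. The S-phase genes were Mcm2 to Mcm7, Pcna, Rrm1, Rrm2, Tyms, Tk1, Ccne1 and Ccne2. The mitotic genes were Mki67, Top2a, Cdk1, Ccnb1, Ccnb2, Ccna2, Birc5, Bub1, Bub1b, Aurka, Aurkb, Plk1, Cenpa, Cenpe, Cenpf, Kif11, Kif20a, Nusap1, Ube2c, Cdc20, Hmmr and Tpx2. RNA came from microglia of the cerebellum of mice with a knockout of Fmr1, the gene that is silenced in fragile X syndrome. 3 libraries were from mice given poly(I:C), a synthetic double-stranded RNA that mimics viral infection, by intraperitoneal injection, and 3 were from saline controls, which the sample titles call sham. All 6 libraries carried the Fmr1 knockout, so there was no wild-type group, and the labels give neither age, sex, dose nor the time between injection and harvest. The cells were pulled down with CD11b MicroBeads, and CD11b is also carried by neutrophils, monocytes and the other macrophages of the brain.

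As background, a cell that commits to divide loads the Mcm2 to Mcm7 helicase ring onto replication origins, makes deoxynucleotides with ribonucleotide reductase and thymidylate synthase, and copies its DNA with Pcna as the sliding clamp. Transcripts for these steps are driven largely by E2F factors around the start of S phase. Genes for spindle, kinetochore and cyclin B function are driven later, through CCAAT boxes bound by NF-Y and through CHR elements bound by the MuvB complex with B-Myb or FoxM1. Adult microglia divide rarely at rest and can proliferate after injury or inflammation.

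The 6 libraries held between 33710545 and 34899835 counts, and 3 counts equalled 0.0852 to 0.0912 CPM, the count scaled to a common library size by TMM. Fmr1 had 62.6, 43.9 and 54.5 CPM in poly(I:C) libraries and 37.8, 38.6 and 40.5 CPM in saline libraries, a log2 difference of 0.46 (SE 0.14, adjusted p = 0.167 in edgeR's quasi-likelihood test). Reads over Fmr1 check neither the genotype nor the groups, because all animals were knockouts and the deleted part is not given. Of 12 microglia markers 11 had a row. They summed to 29602, 41314 and 38297 CPM in poly(I:C) libraries and 37801, 42416 and 44016 CPM in saline libraries, lowest in poly(I:C) replicate 1. In the saline group, replicate 1 stood apart. Its markers of mature neutrophils summed to 12975 CPM, against 2730 and 2661 CPM in saline replicates 2 and 3, so the results for the 35 genes are given with and without it. The labels do not say whether replicates were separate animals, so a p-value here reflects library-to-library spread that could be technical in origin.

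The promoters of 29 of the 35 genes were matched by symbol in a RefSeq table of the bases from 250 before to 50 after each gene start (build GRCm38.p6, not the GRCm39 build of the counts). The 7 below are shown because they span the patterns described next. Mcm2, Mcm5 and Mcm6 are S-phase genes with higher counts after poly(I:C) than in saline replicates 2 and 3, Rrm2 is the S-phase gene that did the opposite, and Mki67, Cdc20 and Ube2c are mitotic genes. Each is the 250 bases before the start, 5′ to 3′ on the gene's strand. Capitals mark matches on either strand to TTTGAA or TTCGAA (CHR), CCAAT, and TTTCCCGC, TTTGGCGC or TTCCCGCC (E2F-type).
Mcm2, GRCm38.p6 chr6:88898781-88899030, - strand: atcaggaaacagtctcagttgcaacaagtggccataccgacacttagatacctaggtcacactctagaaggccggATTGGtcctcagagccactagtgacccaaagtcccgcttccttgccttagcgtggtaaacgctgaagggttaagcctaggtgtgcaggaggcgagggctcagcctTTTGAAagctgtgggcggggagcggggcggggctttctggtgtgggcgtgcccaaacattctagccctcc
Mcm5, GRCm38.p6 chr8:75109259-75109508, + strand: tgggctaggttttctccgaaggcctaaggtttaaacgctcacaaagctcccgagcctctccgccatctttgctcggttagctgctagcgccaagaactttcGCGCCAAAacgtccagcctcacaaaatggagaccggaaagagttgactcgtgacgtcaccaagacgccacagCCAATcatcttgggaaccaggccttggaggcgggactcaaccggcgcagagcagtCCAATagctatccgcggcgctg
Mcm6, GRCm38.p6 chr1:128359706-128359955, - strand: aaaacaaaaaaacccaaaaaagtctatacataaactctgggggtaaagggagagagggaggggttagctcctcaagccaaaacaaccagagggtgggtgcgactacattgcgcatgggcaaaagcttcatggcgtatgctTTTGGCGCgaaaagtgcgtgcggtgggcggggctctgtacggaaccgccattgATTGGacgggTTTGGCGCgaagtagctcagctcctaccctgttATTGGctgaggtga
Rrm2, GRCm38.p6 chr12:24708004-24708253, + strand: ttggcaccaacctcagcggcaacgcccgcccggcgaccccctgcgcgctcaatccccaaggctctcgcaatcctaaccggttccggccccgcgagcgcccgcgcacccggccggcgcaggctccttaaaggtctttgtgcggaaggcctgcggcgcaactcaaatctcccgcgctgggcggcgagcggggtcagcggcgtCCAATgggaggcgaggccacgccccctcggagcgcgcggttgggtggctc
Mki67, GRCm38.p6 chr7:135716380-135716629, - strand: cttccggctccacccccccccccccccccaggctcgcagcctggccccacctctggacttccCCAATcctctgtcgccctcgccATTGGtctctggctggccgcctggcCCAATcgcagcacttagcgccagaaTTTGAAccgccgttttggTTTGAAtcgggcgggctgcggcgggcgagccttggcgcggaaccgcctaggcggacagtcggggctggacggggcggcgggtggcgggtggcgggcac
Cdc20, GRCm38.p6 chr4:118437344-118437593, - strand: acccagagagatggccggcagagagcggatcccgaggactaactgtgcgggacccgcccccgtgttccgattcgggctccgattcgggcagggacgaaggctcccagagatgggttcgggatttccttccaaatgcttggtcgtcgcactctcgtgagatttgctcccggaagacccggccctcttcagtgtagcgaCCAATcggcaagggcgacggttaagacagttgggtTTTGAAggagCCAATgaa
Ube2c, GRCm38.p6 chr2:164769679-164769928, + strand: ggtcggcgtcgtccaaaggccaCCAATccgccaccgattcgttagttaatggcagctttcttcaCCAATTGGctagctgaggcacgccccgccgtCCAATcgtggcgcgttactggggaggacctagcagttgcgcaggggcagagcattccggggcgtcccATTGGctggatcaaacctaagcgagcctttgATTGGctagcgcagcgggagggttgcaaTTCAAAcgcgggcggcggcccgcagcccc
In the Mcm6 promoter TTTGGCGC stood at positions -110 to -103 and again at -47 to -40, counted back from the start. Mki67 held a pair of TTTGAA matches, at -116 to -111 and -98 to -93, downstream of its CCAAT matches. Ube2c had TTTGAA on the minus strand at -29 to -24, and Cdc20 had it at -18 to -13. Mcm2, an S-phase gene, held TTTGAA at -70 to -65 and CCAAT on the minus strand at -175 to -171. In the Rrm2 window CCAAT at -50 to -46 was the single match.

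Over all 18 mitotic promoters, 14 (77.8%) held a CHR match and 16 (88.9%) held CCAAT. The same letters were in 19.2% and 37.4% of all 32851 promoters of this length. A CHR and a CCAAT match stood together in 14 of the 18 (77.8%), against 7.52% of all promoters. Of the 12 S-phase promoters, which include 2 starts of Mcm7, 2 (16.7%) held a CHR match and 9 (75.0%) held CCAAT. An E2F-type match was found in 5 of the 12 (41.7%), in Mcm3, Mcm5, Mcm6, Mcm7 and Rrm1, in 0 of the 18 mitotic promoters, and in 3.21% of all promoters. TTTCCCGC and TTCCCGCC can overlap, as they do in Mcm3, and TTCGAA reads the same on both strands. Each promoter was counted once per motif. These shares describe letters, and a window without a match says nothing about the factor.

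**Figure D1:**
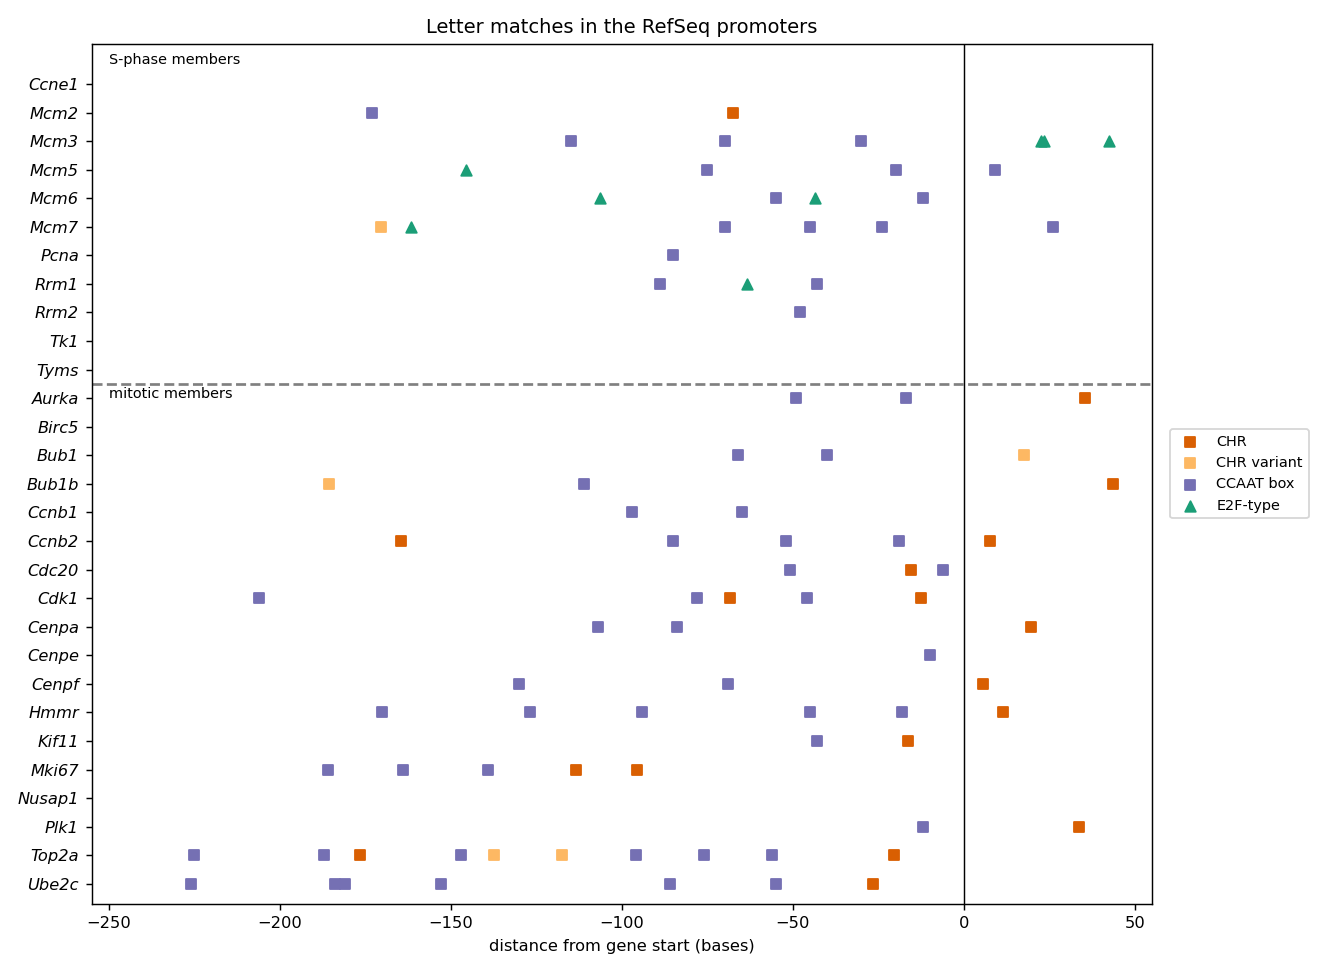
Distance in bases from the gene start (x axis) of each match to the CHR, its second form (CHR variant), the CCAAT box and the E2F-type letters in the promoters of 11 S-phase and 18 mitotic genes (rows; both Mcm7 starts share a row). CHR matches lie in 14 of the 18 mitotic promoters, and E2F-type matches lie in 5 of the 12 S-phase promoters and in no mitotic one.

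Comparing poly(I:C) with saline asks how a systemic viral mimic altered the transcripts of these cells. In the fit with all libraries, the mitotic genes had lower fitted levels with poly(I:C) without passing the test, and the S-phase genes lay on both sides of 0. The fitted log2 difference was negative for 22 of 22 mitotic genes, with a median of -1.56, and for 7 of 13 S-phase genes, with a median of -0.01. Over all 14727 tested genes the median was 0.01. With p-values from edgeR adjusted by Benjamini-Hochberg over all tested genes, 0 of the 35 were called at an adjusted p under 0.05, where 0.883% of all genes were called higher and 0.0747% lower. At an unadjusted p under 0.05 edgeR had 10 of 22 mitotic genes lower and 0 higher, and 1 of 13 S-phase genes lower and 0 higher, against 10.8% of all genes lower and 10.5% higher. DESeq2 called 8 mitotic genes lower (Ccnb1, Ccnb2, Bub1b, Aurkb, Cenpa, Nusap1, Ube2c and Cdc20) and 0 of the 13 S-phase genes, where 3.76% of all genes were called higher and 3.02% lower. By CPM, 9 mitotic genes and 1 S-phase gene had all 3 poly(I:C) libraries below all 3 saline libraries and 0 of the 35 had them above, against 14.3% of all genes below and 14.0% above. In limma-voom with quality weights, which weigh down variable libraries, 4 S-phase genes were higher (Mcm2, Mcm3, Mcm4 and Mcm6) and 2 mitotic genes lower (Cenpa and Cdc20), where 8.61% of all genes were called higher and 10.9% lower.

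Saline replicate 1 held the highest level of each mitotic gene. All 22 mitotic genes were higher there than in any other library, which held for 20.5% of all tested genes, and 22 of 22 were at least 2-fold above the mean of saline replicates 2 and 3, which held for 7.38% of all genes. The ratio to that mean was between 2.79 for Cenpa and 6.44 for Hmmr, with a median of 4.69. Of the S-phase genes, 10 of 13 were highest in saline replicate 1 and 9 were at least 2-fold above the other saline libraries, at a median ratio of 2.39. The S-phase ratios ran between 1.58 for Pcna and 5.96 for Rrm2, so Rrm2 alone of the S-phase genes lay above the mitotic median. The median of all tested genes was 0.989.

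The summed level of the 22 mitotic genes was 168, 107 and 118 CPM in the poly(I:C) libraries in replicate order, and 799, 160 and 181 CPM in saline replicates 1, 2 and 3. The summed level of the 13 S-phase genes was 425, 345 and 385 CPM in poly(I:C) libraries and 569, 255 and 250 CPM in saline libraries. The S-phase sums of the poly(I:C) libraries therefore lay between those of saline replicate 1 and the other saline libraries, whereas 2 of the 3 poly(I:C) mitotic sums lay below all saline sums. The mitotic sum divided by the S-phase sum was 0.396, 0.311 and 0.305 in poly(I:C) libraries, against 1.40, 0.626 and 0.722 in saline libraries. Neither group overlapped the other in this ratio with all libraries. Saline replicate 1 had the highest ratio, so leaving it out could not change that. The ratio is not scaled for gene length and serves to compare libraries only. In these bulk samples, fewer dividing cells and less of a transcript per cell cannot be told apart.

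Like the mitotic sum, both neutrophil marker sums were highest in saline replicate 1. As sums, both lay lower in each poly(I:C) library than in any saline library. The mitotic sum did not, with 168 CPM in poly(I:C) replicate 1 against 160 CPM in saline replicate 2. Gene by gene, the mature neutrophil markers did not keep the groups apart either, except for Mmp9 and Cd177. Markers of neutrophil precursors and granules (12 of 12 with a row, none at 0 in any library) summed to 1335, 252 and 324 CPM in poly(I:C) libraries, against 13217, 1530 and 1606 CPM in saline libraries. The mature neutrophil markers, also 12 of 12, summed to 2419, 1666 and 1671 CPM in poly(I:C) libraries, against 12975, 2730 and 2661 CPM in saline libraries. Most of the mature sum in poly(I:C) replicates 2 and 3 was Csf3r, the G-CSF receptor gene, which varied little, with 945, 1320 and 1250 CPM in poly(I:C) libraries and 1360, 1290 and 1330 CPM in saline libraries. The lowest of these Csf3r values belonged to poly(I:C) replicate 1 and lowered the mature sum of that library. S100a9, a calcium-binding protein gene of neutrophils, had 713, 188 and 203 CPM in poly(I:C) libraries, against 6680, 780 and 689 CPM in saline libraries. The groups of S100a9 overlapped. Ngp, a granule protein gene and the precursor marker with the most CPM, had 496, 82.1 and 110 CPM in poly(I:C) libraries, against 4590, 534 and 569 CPM in saline libraries, and its groups did not overlap. Elane, the neutrophil elastase gene of dividing granulocyte precursors, had 12.8, 3.99 and 2.07 CPM in poly(I:C) libraries, against 261, 26.2 and 17.4 CPM in saline libraries. Mpo, the myeloperoxidase gene of the same stage, had 39.0, 13.7 and 5.66 CPM in poly(I:C) libraries and 831, 85.5 and 51.3 CPM in saline libraries. Saline replicate 1 was highest for both genes, and the groups did not overlap for either. Of the other precursor and granule markers, Prtn3, Camp, Ltf, Fcnb and Cebpe also had groups that did not overlap. The groups overlapped for Ctsg, Ms4a3, Lcn2 and Chil3. The log2 difference of Ngp was -3.05 (adjusted p = 0.201 in edgeR), which misses the threshold. The part of neutrophil transcripts in the mitotic result was not tested.

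**Figure D2:**
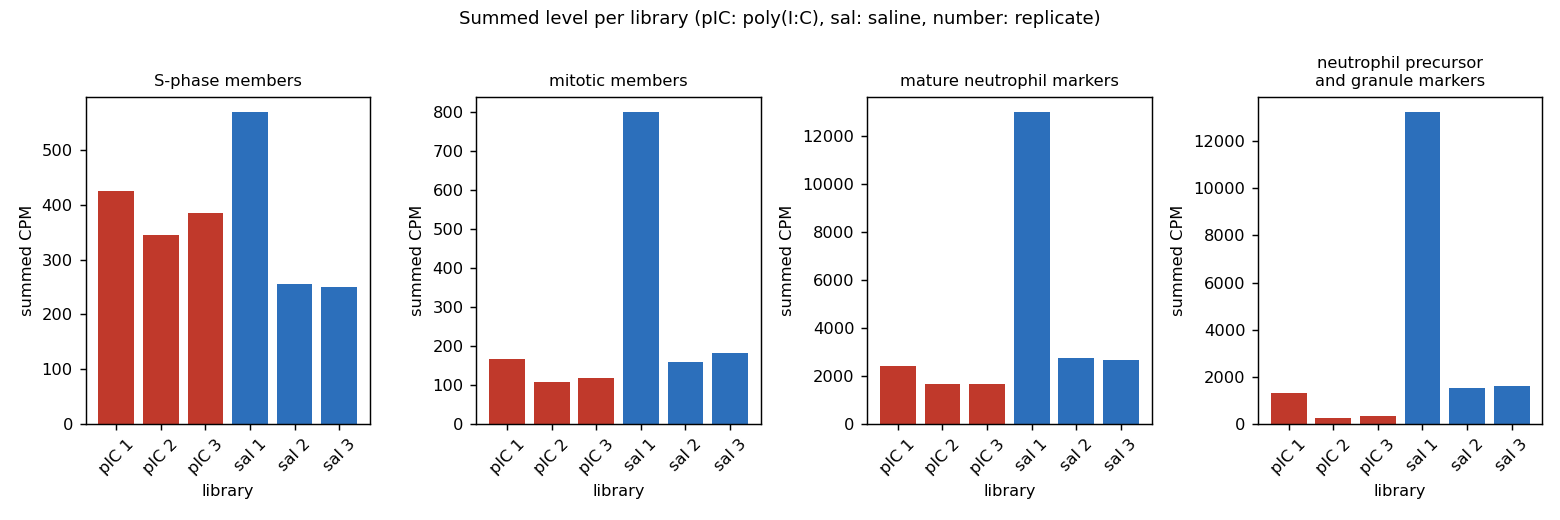
Summed TMM-scaled CPM (y axis, from 0) in each library for the 13 S-phase genes, the 22 mitotic genes and both neutrophil marker lists. Saline replicate 1 is the highest bar in each panel, at 799 CPM for the mitotic genes and 13217 CPM for the precursor and granule markers, and the 3 poly(I:C) libraries exceed saline replicates 2 and 3 in the S-phase panel alone.

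Border-associated macrophage markers summed to 1509, 1172 and 1136 CPM in poly(I:C) libraries, against 1648, 1615 and 2160 CPM in saline libraries, and the groups did not overlap. Erythroid markers, from cells whose precursors also divide, summed to 50.4, 25.2 and 44.7 CPM in poly(I:C) libraries and 131, 450 and 56.1 CPM in saline libraries, with the peak in saline replicate 2. Markers of oligodendrocytes and their precursors were between 147 and 160 CPM in poly(I:C) libraries and between 147 and 157 CPM in saline libraries. Monocyte markers summed to 870, 434 and 541 CPM in poly(I:C) libraries and 1177, 393 and 565 CPM in saline libraries. T and NK cell markers summed to 16.1, 14.1 and 15.2 CPM in poly(I:C) libraries and 43.9, 11.7 and 14.4 CPM in saline libraries, again highest in saline replicate 1, as were the monocyte markers. Most of the T and NK sum in saline replicate 1 was Nkg7 (17.9 CPM), Cd4 (13.6 CPM) and Gzma (8.27 CPM). The T cell genes Cd3e, Cd3d, Cd3g and Cd8a had 0, 0.182, 0.0608 and 0.0608 CPM in saline replicate 1. B cell markers summed to 15.9, 14.5 and 13.6 CPM in poly(I:C) libraries and 28.1, 16.2 and 14.4 CPM in saline libraries, also highest there. Choroid plexus markers were highest in poly(I:C) replicate 1, at 19429 CPM, against 7666 and 9325 CPM in the other poly(I:C) libraries and 4054, 8450 and 3959 CPM in saline libraries. Endothelial and pericyte markers summed to 447, 190 and 220 CPM in poly(I:C) libraries and 129, 278 and 142 CPM in saline libraries. Astrocyte and Bergmann glia markers had 99.5, 124 and 134 CPM in poly(I:C) libraries and 104, 146 and 107 CPM in saline libraries. Cerebellar granule neuron and progenitor markers, mostly Zic1 and Zic2, had 22.2, 8.36 and 10.3 CPM in poly(I:C) libraries and 5.08, 14.3 and 5.01 CPM in saline libraries. The parts of these cells in the results were not tested.

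Without saline replicate 1 the S-phase and mitotic genes had medians on opposite sides of 0. The median log2 difference was 0.29 for the S-phase genes and -0.38 for the mitotic genes, beside 0.03 for all genes tested. Counted by sign, 10 of 13 S-phase genes were positive and 20 of 22 mitotic genes negative. In edgeR's quasi-likelihood test on these 5 libraries, Mcm2, Mcm3, Mcm5 and Mcm6 were called higher and 0 of the 22 mitotic genes were called. Over all genes, 1.10% were called higher and 0.106% lower. Saline replicate 1 was the highest saline library for each of these Mcm genes, so leaving it out raised their differences. At an unadjusted p under 0.05, 7 S-phase genes were higher and 1 lower, and 3 mitotic genes were lower and 0 higher, against 9.58% of all genes higher and 7.75% lower. By CPM values alone, 9 of 13 S-phase genes had all 3 poly(I:C) libraries above saline replicates 2 and 3, against 21.4% of all tested genes, and 1 had them below. For the mitotic genes, 0 had them above and 9 had them below, against 22.1% of all genes below. These 9 were Ccnb1, Ccnb2, Bub1b, Aurkb, Plk1, Cenpa, Kif20a, Ube2c and Cdc20. They are the same 9 as with all libraries. Saline replicate 1 was highest for each mitotic gene, so leaving it out could not change which genes lay below. Saline replicates 2 and 3 leave 2 control libraries, so the spread of the saline group then rests on a single pair.

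**Figure D3:**
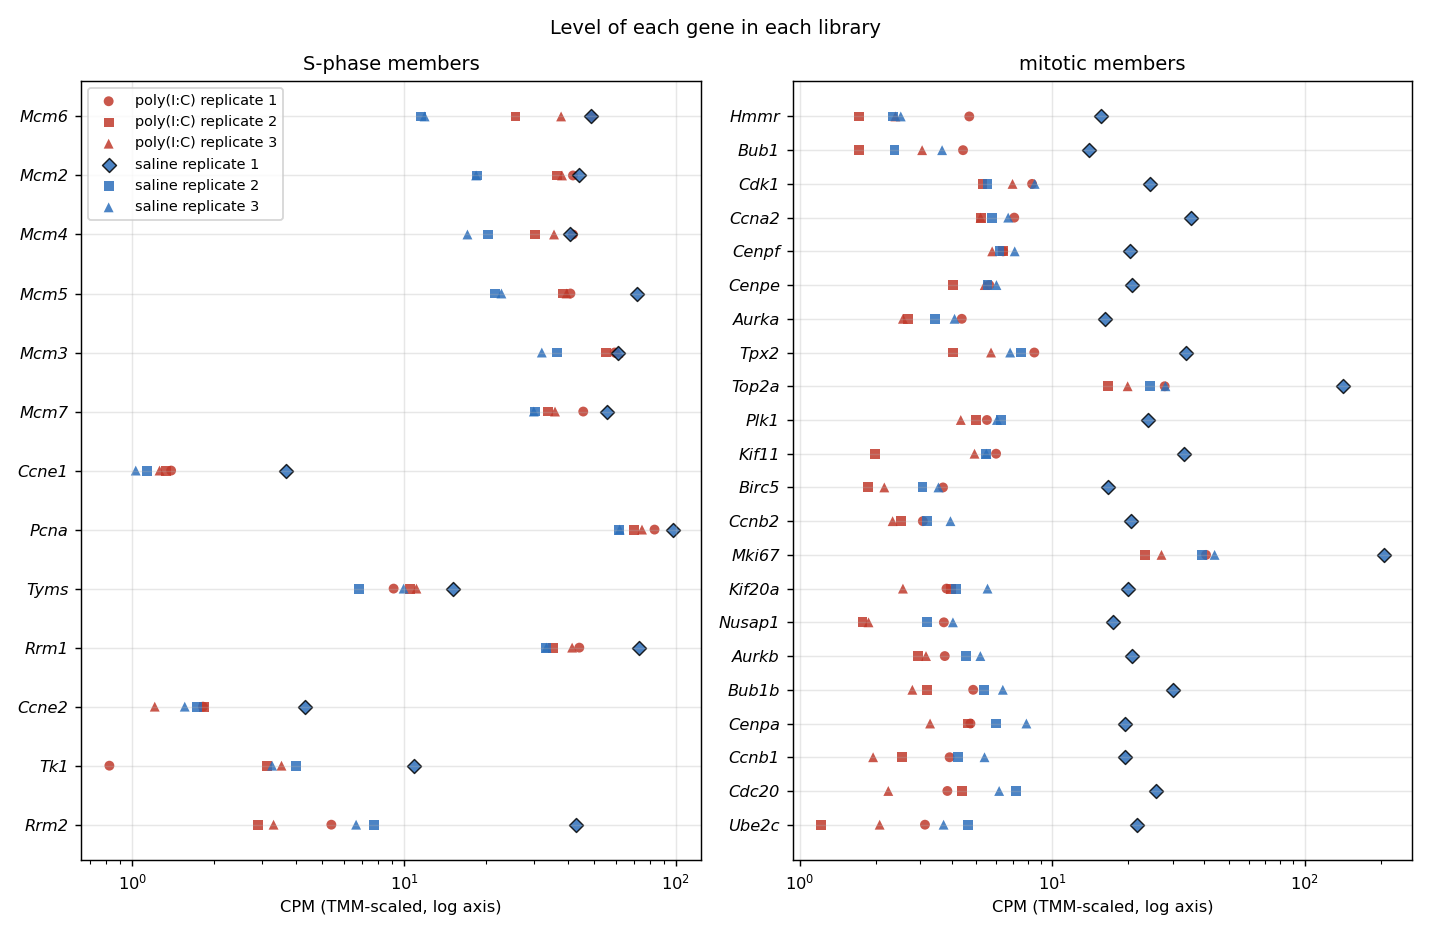
TMM-scaled CPM (x axis, log scale) of each S-phase gene (left) and mitotic gene (right) in each library, with genes ordered by the ratio of the poly(I:C) mean to the mean of saline replicates 2 and 3. Saline replicate 1 (outlined diamonds) is the highest library for all 22 mitotic genes and for 10 of 13 S-phase genes, and the 3 poly(I:C) libraries of Mcm2 to Mcm7 lie above saline replicates 2 and 3.

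The 4 S-phase genes called by edgeR without saline replicate 1 were all subunits of the replicative helicase. Mcm2 had 41.8, 36.4 and 38.1 CPM in poly(I:C) libraries, against 44.0, 18.5 and 18.4 CPM in saline libraries. Saline replicate 1 lay just above the poly(I:C) libraries and was 2.39-fold above the mean of the other saline libraries, which lay below all poly(I:C) libraries. With all libraries the log2 difference of Mcm2 was 0.52 (SE 0.34, adjusted p = 0.386 in edgeR), and without saline replicate 1 it was 1.06 (SE 0.11, adjusted p = 0.00739). Over its 16 alternative settings the adjusted p of Mcm2 ran between 1.96e-11 and 0.687. Mcm6, another subunit of the ring, had 49.0, 25.7 and 37.8 CPM in poly(I:C) libraries, against 48.5, 11.5 and 11.9 CPM in saline libraries. Its poly(I:C) libraries spread more than those of Mcm2, and its log2 difference was 0.65 (SE 0.58, adjusted p = 0.525) with all libraries and 1.66 (SE 0.25, adjusted p = 0.0368) without saline replicate 1. The adjusted p of Mcm6 ran between 1.26e-07 and 0.812 over its alternatives.

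Mcm5 had 40.9, 38.3 and 39.6 CPM in poly(I:C) libraries, against 71.7, 21.6 and 22.8 CPM in saline libraries. Saline replicate 1 was 3.23-fold above the mean of the other saline libraries, and the poly(I:C) libraries lay between them. The log2 difference was 0.04 (SE 0.45, adjusted p = 0.971) with all libraries, 0.83 (SE 0.10, adjusted p = 0.0187 in edgeR) without saline replicate 1, and -0.25 and -0.24 without saline replicates 2 and 3. Over the alternatives the adjusted p of Mcm5 ran between 3.17e-07 and 0.993. Mcm3 had 59.5, 55.3 and 61.4 CPM in poly(I:C) libraries and 61.3, 36.5 and 32.1 CPM in saline libraries, with a log2 difference of 0.44 (SE 0.24, adjusted p = 0.309) from all libraries. Without saline replicate 1 the log2 difference of Mcm3 was 0.77 (SE 0.11, adjusted p = 0.0355 in edgeR, between 9.03e-06 and 0.596 over the alternatives). Mcm4 had 41.8, 30.2 and 35.6 CPM in poly(I:C) libraries and 40.8, 20.3 and 17.1 CPM in saline libraries, with an adjusted p of 0.0561 without saline replicate 1, which misses the threshold. Mcm7 had 45.6, 33.9 and 35.9 CPM in poly(I:C) libraries, against 55.7, 30.3 and 30.0 CPM in saline libraries, and its log2 difference without saline replicate 1 was 0.34 (SE 0.13, adjusted p = 0.269). Summed over Mcm2 to Mcm7, the poly(I:C) libraries had 278.7, 219.9 and 248.4 CPM, against 322, 138.7 and 132.3 CPM in saline libraries.

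The clamp and the enzymes that make nucleotides were not called by edgeR in either fit. Pcna, the sliding clamp of DNA polymerase, had the most reads of the S-phase genes (not scaled for length), with 83.4, 69.9 and 75.0 CPM in poly(I:C) libraries and 97.4, 61.6 and 62.1 CPM in saline libraries. Its log2 difference was 0.05 (SE 0.19, adjusted p = 0.902) with all libraries and 0.29 (SE 0.10, adjusted p = 0.224) without saline replicate 1. Rrm1, the large subunit of ribonucleotide reductase, had 44.1, 35.2 and 41.5 CPM in poly(I:C) libraries and 72.9, 33.3 and 33.4 CPM in saline libraries, with a log2 difference of -0.21 (SE 0.31) from all libraries and 0.26 (SE 0.12, adjusted p = 0.303) without saline replicate 1. Rrm2, the small subunit, whose protein is degraded late in the cell cycle, had 5.40, 2.90 and 3.31 CPM in poly(I:C) libraries, against 42.9, 7.74 and 6.66 CPM in saline libraries. All 3 poly(I:C) libraries of Rrm2 were below all saline libraries, the single S-phase gene with that pattern. The log2 difference of Rrm2 was -2.30 (SE 0.76, adjusted p = 0.185 in edgeR) with all libraries and -0.91 (SE 0.30, adjusted p = 0.226) without saline replicate 1.

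Tyms, thymidylate synthase, had 9.15, 10.5 and 11.1 CPM in poly(I:C) libraries and 15.1, 6.84 and 9.96 CPM in saline libraries, and the groups overlapped. Its log2 difference was -0.05 (SE 0.29) with all libraries and 0.28 (SE 0.24) without saline replicate 1. Tk1, the cytosolic thymidine kinase of dividing cells, had 29, 106 and 123 counts in poly(I:C) libraries, against 358, 139 and 111 counts in saline libraries. The low value of Tk1 was poly(I:C) replicate 1, at 0.824 CPM, and its log2 difference was -1.28 (SE 0.66, adjusted p = 0.296) with all libraries, -0.53 (SE 0.60, adjusted p = 0.640) without saline replicate 1 and -0.10 (SE 0.29) without replicate 1 of either group. Ccne1 and Ccne2 encode cyclin E, which drives entry into S phase with Cdk2. Ccne1 had 1.39, 1.33 and 1.26 CPM in poly(I:C) libraries and 3.68, 1.13 and 1.03 CPM in saline libraries, and Ccne2 had 1.82, 1.83 and 1.21 CPM in poly(I:C) libraries and 4.32, 1.73 and 1.56 CPM in saline libraries. The groups overlapped for both with all libraries, and the log2 difference of Ccne1 was then -0.55 (SE 0.55, adjusted p = 0.566). Without saline replicate 1 the log2 differences were 0.29 (SE 0.39) for Ccne1 and -0.03 (SE 0.38) for Ccne2, both smaller than their errors.

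**Figure D4:**
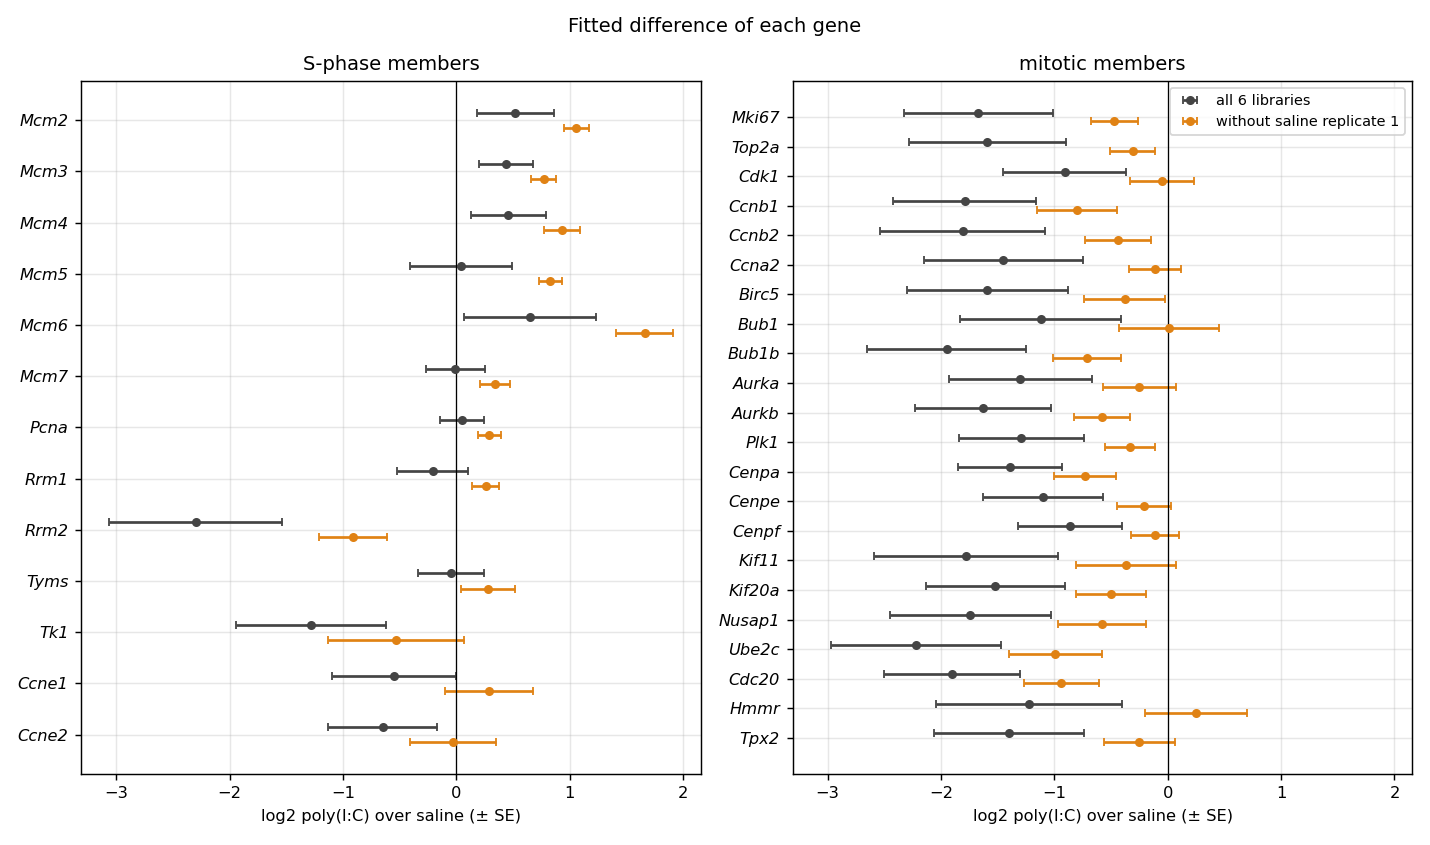
Fitted log2 difference of poly(I:C) over saline (x axis) with its standard error for each S-phase gene (left) and mitotic gene (right), with all 6 libraries (grey) and without saline replicate 1 (orange). The medians are -0.01 and 0.29 for the S-phase genes and -1.56 and -0.38 for the mitotic genes, and the standard error of Mcm2 is 0.34 with and 0.11 without that library.

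Mki67 and Top2a are the usual markers of cycling cells. Mki67, the Ki-67 protein that coats mitotic chromosomes, had 40.7, 23.3 and 27.1 CPM in poly(I:C) libraries, against 207, 39.1 and 44.0 CPM in saline libraries. Poly(I:C) replicate 1 reached the level of saline replicate 2, and the other poly(I:C) libraries were below all saline libraries. The log2 difference of Mki67 was -1.67 (SE 0.66, adjusted p = 0.220 in edgeR) with all libraries and -0.47 (SE 0.21, adjusted p = 0.304) without saline replicate 1. In the 4 libraries left without replicate 1 of either group it fell by 0.70 on the log2 scale (SE 0.12, adjusted p = 0.0281, between 0.0159 and 0.439 over the alternatives). Top2a, the topoisomerase that untangles sister chromatids, had 27.9, 16.7 and 19.9 CPM in poly(I:C) libraries and 142, 24.5 and 28.1 CPM in saline libraries. Its log2 difference was -1.59 (SE 0.69, adjusted p = 0.240) with all libraries, and without saline replicate 1 it was -0.31 (SE 0.20, adjusted p = 0.429).

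The 4 mitotic genes with the smallest p were Cdc20, Cenpa, Ube2c and Ccnb1. Cdc20, the activator of the anaphase-promoting complex, had 3.84, 4.40 and 2.24 CPM in poly(I:C) libraries, against 25.7, 7.16 and 6.16 CPM in saline libraries. The groups did not overlap, which leaving out saline replicate 1, the highest library, could not change. Its log2 difference was -1.90 (SE 0.60, adjusted p = 0.178 in edgeR) with all libraries and -0.94 (SE 0.33, adjusted p = 0.243) without saline replicate 1. Ube2c, the ubiquitin-conjugating enzyme of the same complex, had 3.13, 1.21 and 2.07 CPM in poly(I:C) libraries and 21.6, 4.65 and 3.71 CPM in saline libraries. Its log2 difference was -2.22 (SE 0.75, adjusted p = 0.189) with all libraries and -0.99 (SE 0.41, adjusted p = 0.289) without saline replicate 1, the lowest of the mitotic genes in both fits. Cenpa, the histone H3 variant of centromeres, had 4.74, 4.64 and 3.28 CPM in poly(I:C) libraries and 19.4, 5.98 and 7.90 CPM in saline libraries. Ccnb1, cyclin B1, which forms the mitotic kinase with Cdk1, had 3.92, 2.54 and 1.95 CPM in poly(I:C) libraries and 19.5, 4.24 and 5.39 CPM in saline libraries. For both genes the poly(I:C) libraries lay below all saline libraries. The log2 difference of Cenpa was -1.39 (SE 0.46, adjusted p = 0.185) with all libraries and -0.73 (SE 0.27, adjusted p = 0.257) without saline replicate 1. That of Ccnb1 was -1.79 (SE 0.63, adjusted p = 0.195) with all libraries and -0.80 (SE 0.35, adjusted p = 0.297) without it. Over the alternatives the adjusted p ran between 0.00806 and 0.415 for Cdc20, 0.00947 and 0.415 for Ube2c, 0.0233 and 0.415 for Cenpa, and 0.0213 and 0.419 for Ccnb1.

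Cdk1, the kinase partner of cyclin B1, had 8.32, 5.29 and 6.96 CPM in poly(I:C) libraries and 24.5, 5.54 and 8.52 CPM in saline libraries, and its groups overlapped, with a log2 difference of -0.05 (SE 0.28) without saline replicate 1. The difference between Cdk1 and Ccnb1 was not tested. Ccna2, cyclin A2, which acts from S phase into mitosis, and Cenpf, a late kinetochore protein, also stood near 0 in that fit, at -0.11 each (SE 0.23 and 0.21). Ccnb2, cyclin B2, was at -0.44 (SE 0.29). The mitotic kinase genes Aurkb, Plk1 and Aurka were at -0.58, -0.33 and -0.25, with SE of 0.25, 0.22 and 0.32. Bub1b and Bub1, which encode spindle checkpoint kinase family proteins, were at -0.71 (SE 0.30) and 0.01 (SE 0.44). Birc5, the survivin subunit of the chromosomal passenger complex that holds Aurkb, was at -0.38 (SE 0.36).

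In the fit without saline replicate 1, the kinesin genes Kif20a and Kif11 had log2 differences of -0.50 (SE 0.31) and -0.37 (SE 0.44), and the kinetochore motor Cenpe had -0.21 (SE 0.24). Nusap1, Tpx2 and Hmmr, which encode spindle microtubule proteins, were at -0.58 (SE 0.39), -0.25 (SE 0.31) and 0.25 (SE 0.45). Hmmr and Bub1 were the 2 mitotic genes with a positive value there. In Hmmr the highest poly(I:C) value, 4.69 CPM, was in replicate 1, against 1.71 and 2.39 CPM in the other poly(I:C) libraries and 15.6, 2.34 and 2.51 CPM in saline libraries.

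Without replicate 1 of either group, leaving 2 libraries a group, edgeR called Mcm2, Mcm3, Mcm4, Mcm5 and Mcm6 higher and Rrm2 and Mki67 lower, where 2.40% of all genes were called higher and 1.45% lower. At an unadjusted p under 0.05, 6 S-phase genes were higher and 1 lower, and 0 mitotic genes were higher and 9 lower, against 10.3% of all genes higher and 9.83% lower. The log2 differences of the 5 helicase genes were between 0.79 and 1.46, and that of Rrm2 was -1.19 (SE 0.25, adjusted p = 0.0498, between 0.0128 and 0.415 over the alternatives). The median S-phase difference minus the median mitotic difference was 1.55 with all libraries, 0.67 without saline replicate 1 and 0.83 without both. Chosen after these values were seen, DESeq2 without saline replicate 1 called Mcm2 to Mcm6 higher and 0 of the 35 lower, where 3.85% of all genes were called higher and 2.38% lower. At an unadjusted p under 0.05 DESeq2 had 6 S-phase genes higher and 1 lower there, and 0 mitotic genes higher and 7 lower. Of the 21742 genes with a p-value in that fit, 1553 were higher and 1504 lower at the same threshold. Limma-voom with quality weights on the same 5 libraries also called Pcna and Rrm1 higher, and Rrm2, Mki67, Ccnb1, Bub1b, Cenpa, Ube2c and Cdc20 lower, where 7.97% of all genes were called higher and 8.96% lower.

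Other genes of the same phases were read from further lists. Of 30 other replication genes, 0 were called by edgeR with or without saline replicate 1, and at an unadjusted p under 0.05 it had 0 higher with all libraries, where 10.5% of all genes were higher, and 14 higher without it, where 9.58% of all genes were, and 0 lower in both. With all libraries DESeq2 called 0 of the 30, against 3.76% of all genes higher, and limma-voom called 3 higher, a share near its 8.61% of all genes. Their median log2 difference was 0.05 with all libraries and 0.57 without saline replicate 1, where 30 of 30 were positive. In 27 of the 30 the poly(I:C) libraries lay above saline replicates 2 and 3, against 21.4% of all genes. Gins1, a subunit of the GINS complex that completes the helicase, had 6.71, 5.67 and 5.52 CPM in poly(I:C) libraries and 5.23, 2.74 and 2.71 CPM in saline libraries, the single gene of the list whose groups did not overlap with all libraries. Orc1, an origin recognition subunit, had 2.39, 1.21 and 1.75 CPM in poly(I:C) libraries and 1.58, 0.231 and 0.295 CPM in saline libraries, a log2 difference of 1.34 (SE 0.77, adjusted p = 0.329) with all libraries and 2.73 (SE 0.52, adjusted p = 0.0809) without saline replicate 1. Pole2, a subunit of DNA polymerase epsilon, had 7.53, 4.23 and 5.26 CPM in poly(I:C) libraries and 5.63, 2.42 and 2.59 CPM in saline libraries.

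Of 40 other mitosis genes, 0 were called by edgeR in either fit, 13 were lower at an unadjusted p under 0.05 with all libraries, against 10.8% of all genes, and 6 without saline replicate 1, against 7.75% of all genes. With all libraries DESeq2 called 7 of the 40 lower, against 3.02% of all genes, and limma-voom called 4 lower, a share near its 10.9% of all genes. The median was -1.16 with all libraries, where 40 of 40 were negative, and -0.22 without saline replicate 1, where 32 were negative. In 13 of the 40 the poly(I:C) libraries lay below saline replicates 2 and 3, against 22.1% of all genes, and in 0 above. With all libraries the count below was also 13, against 14.3% of all genes. Spc24, a subunit of the NDC80 kinetochore complex, had 0.994, 0.739 and 0.632 CPM in poly(I:C) libraries and 10.9, 2.22 and 1.74 CPM in saline libraries (log2 -2.65, SE 0.77, adjusted p = 0.162 with all libraries, and -1.34, adjusted p = 0.200, without saline replicate 1). Espl1, separase, which cuts cohesin, had 20.7, 31.1 and 28.3 CPM in poly(I:C) libraries, against 38.1, 35.7 and 39.9 CPM in saline libraries, so saline replicate 1 did not stand apart for it. Ncaph, a condensin subunit, had 19.4, 19.2 and 19.9 CPM in poly(I:C) libraries and 29.5, 23.5 and 23.2 CPM in saline libraries.

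The regulators of the G1 to S step had 0 of 21 genes called by edgeR and a median log2 difference of -0.01, with 2 higher and 1 lower at an unadjusted p under 0.05, shares no larger than the 10.5% and 10.8% of all genes. Ccnd2, a cyclin D that activates Cdk4 and Cdk6, had 73.1, 34.1 and 43.4 CPM in poly(I:C) libraries and 27.1, 32.7 and 24.6 CPM in saline libraries, and the groups did not overlap (log2 0.83, SE 0.28, adjusted p = 0.188). Rbl2 and Rbl1 encode the pocket proteins p130 and p107. Rbl2 had 56.1, 59.9 and 61.2 CPM in poly(I:C) libraries, against 75.4, 66.7 and 72.9 CPM in saline libraries. Rbl1 had 73.0, 44.1 and 56.4 CPM in poly(I:C) libraries, against 48.0, 36.1 and 35.1 CPM in saline libraries. The list of CDK inhibitors and growth arrest genes had 0 of 17 tested genes called (18 listed), a median of -0.08, and 0 higher and 4 lower at an unadjusted p under 0.05, against 10.5% of all genes higher and 10.8% lower. Cdkn1b, the inhibitor p27, had 49.9, 46.1 and 45.8 CPM in poly(I:C) libraries and 67.0, 57.4 and 57.9 CPM in saline libraries (log2 -0.36, SE 0.10, adjusted p = 0.147). Ccng2, an atypical cyclin linked to growth arrest, had 274, 303 and 339 CPM in poly(I:C) libraries and 347, 396 and 413 CPM in saline libraries. Gadd45a, a stress-induced growth arrest gene, had 7.07, 4.31 and 3.77 CPM in poly(I:C) libraries and 39.3, 7.62 and 7.46 CPM in saline libraries.

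**Figure D5:**
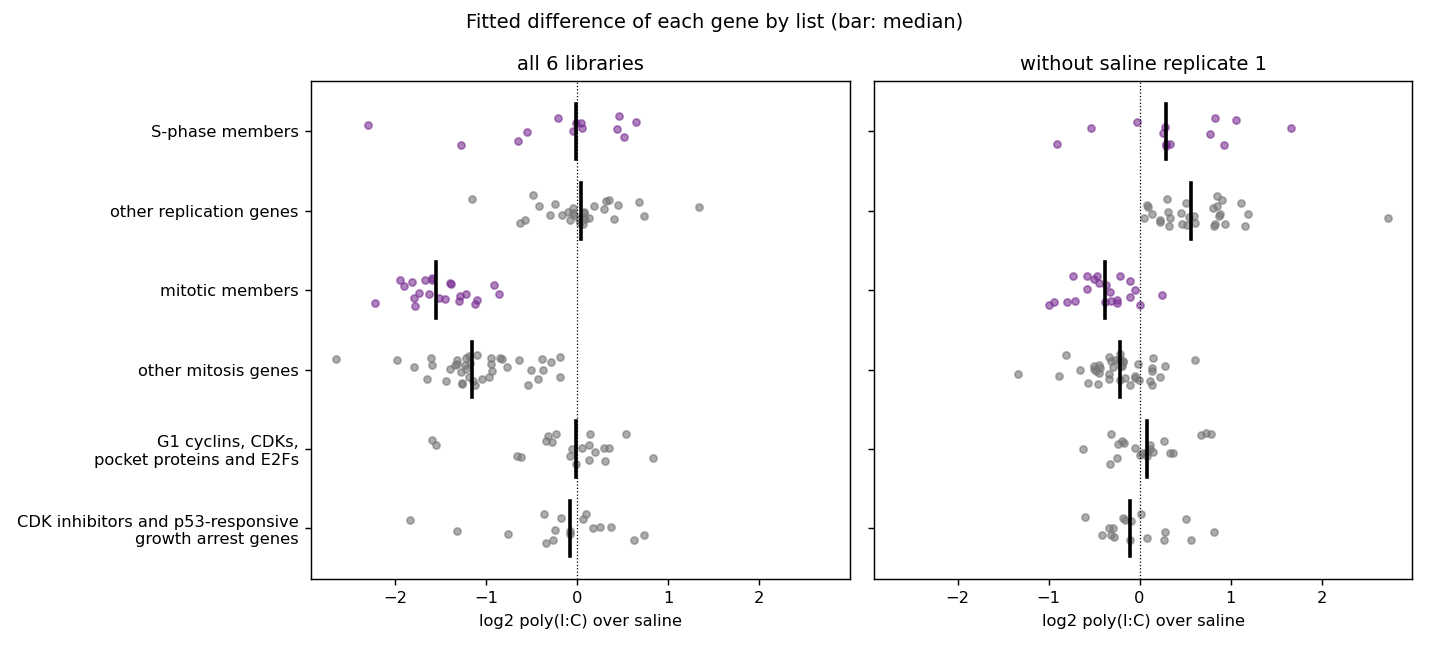
Fitted log2 difference of poly(I:C) over saline (x axis) for each tested gene of 6 lists (rows; bar, median), with all 6 libraries (left) and without saline replicate 1 (right). Without that library the 30 other replication genes are all above 0, at a median of 0.57, and 32 of 40 other mitosis genes are below 0, at a median of -0.22.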

How the data were processed

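Bulk RNA-seq of CD11b-enriched cerebellar microglia covered 3 poly(I:C) and 3 saline libraries. Per the labels' protocols, a Smarter kit made full-length cDNA, and Nextera XT turned it into libraries. The authors deposited raw read counts per gene symbol, with a column for each library and no normalisation or pooling. The submitters' processing notes name fastp, HISAT2, HTSeq and build GRCm39, with versions, annotation and strand setting not given in the sources used here. Nextera XT does not mark strand, so overlapping genes on opposite strands cannot be separated, and pseudogene copies, as exist for Ccnb1, can share reads. No molecular identifiers are named, so floors cover counting error only.

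From these counts, genes were kept by filterByExpr (14727 of 23491), scaled by TMM, and tested with edgeR 4.0.16 (glmQLFit, glmQLFTest, no covariate, adjusted p under 0.05) in R 4.3.3. A standard error is the absolute log2 difference divided by the square root of F. Same-group libraries differed beyond counting noise (chi-square per gene 21.2 to 113), so none was the same library sequenced again. The check cannot tell separate preparations of the same RNA from separate animals. Saline replicate 1 differed from saline replicates 2 and 3 by 113 and 105, and these from each other by 21.2. Poly(I:C) replicate 1 differed from poly(I:C) replicates 2 and 3 by 113 and 56.2, and these from each other by 28.7. Alternatives were RLE and total-count scaling, no filter, a filter of 1 CPM in 3 libraries, DESeq2 1.42.0, limma-voom with quality weights (limma 3.58.1), a replicate block, and fits with libraries left out. The edgeR procedure was tested on simulated data. The 35 genes, the further lists and the markers were chosen with earlier results of these data known. Given in full are the 4 genes of smallest p in each group, the one with the most CPM, Mki67, Top2a, Pcna and Ccne1, and the 3 of smallest p in each further list. The other members given per library, and Elane and Mpo, were chosen after their values were seen. Of the genes listed, 6 without a row were not analysed.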

Additional observations from a re-analysis of the deposited data

How the results depend on the processing

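With all libraries the 22 mitotic differences stayed negative under the planned scalings, filters and tools and under the replicate block; without saline replicate 1 those of Bub1 (0.01) and Hmmr (0.25, and 0.23 in DESeq2) turned positive. No S-phase gene was called in edgeR with all libraries under another scaling or filter. Deviations of same-numbered libraries correlated at 0.108, -0.124 and 0.180, and those of other pairs between -0.367 and 0.312. With 3 libraries a group this check cannot show whether same-numbered libraries shared a batch. Under the replicate block edgeR called 0 of the 35 genes and 171 genes higher and 89 lower over all. Leaving out 1 library gave between 0 and 4 S-phase genes called higher, S-phase medians between -0.25 and 0.29, mitotic medians between -1.94 and -0.38, 51 to 167 genes higher and 0 to 20 lower over all, and S-phase minus mitotic medians between 0.67 and 1.72.

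The totals called higher and lower were 557 and 448 in DESeq2, 1268 and 1608 in limma-voom, 578 and 358 in DESeq2 without saline replicate 1, 1207 and 1358 in limma-voom without it, and 355 and 214 in edgeR without replicate 1 of either group, and 18 were lower with no filter. As shares of all genes, these totals were 3.76% and 3.02% in DESeq2 and 8.61% and 10.9% in limma-voom. Without saline replicate 1 the shares were 3.85% and 2.38% in DESeq2 and 7.97% and 8.96% in limma-voom. They were 2.40% and 1.45% in edgeR without replicate 1 of either group. In limma-voom 4 S-phase genes were higher and the S-phase minus mitotic median was 1.03. Without saline replicate 1, DESeq2 had 5 S-phase genes higher, a mitotic median of -0.39 and a difference of 0.67, and limma-voom had 7 higher, 1 lower, 6 mitotic genes lower and a difference of 0.81. Without replicate 1 of either group there were 5 S-phase genes higher, 1 lower, 1 mitotic gene lower and a difference of 0.83. Mitotic genes called lower were 8 in DESeq2 and 2 in limma-voom. Of 40 other mitosis genes, those called lower were 7 in DESeq2, 4 in limma-voom and 7 in limma-voom without saline replicate 1. Of 30 other replication genes, those called higher were 3 in limma-voom, and without saline replicate 1 they were 4 in DESeq2 and 10 in limma-voom. With all libraries, of 21 G1 regulators DESeq2 called 1 higher and limma-voom 2 higher and 2 lower, near their shares of all genes. Without saline replicate 1, G1 regulators called higher were 2 of 21 in DESeq2 and 3 of 21 in limma-voom. Growth arrest genes called lower were 1 of 18 in DESeq2, 1 of 17 in limma-voom and 2 of 17 in limma-voom without saline replicate 1. DESeq2 and limma-voom without saline replicate 1 were added after seeing the data. The cause of these shifts was not tested.

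Small differences of S-phase genes changed sign. Mcm7 (-0.01) was 0.08 with total-count scaling, 0.01 with the stricter filter, 0.15 in limma-voom, 0.04 under the replicate block, 0.24 without replicate 1 of either group, 0.32 in DESeq2 and 0.28 in limma-voom without saline replicate 1, and between -0.16 and 0.34 leaving out 1 library. Tyms (-0.05) was 0.03 with total-count scaling, 0.25 in limma-voom, 0.02 under the replicate block, 0.39 without replicate 1 of either group, and 0.26 in DESeq2 and 0.41 in limma-voom without saline replicate 1. Ccne1 (-0.55) was 0.02 in limma-voom, 0.29 without replicate 1 of either group, and 0.27 in DESeq2 and 0.26 in limma-voom without saline replicate 1. Rrm1 (-0.21) was 0.14 in limma-voom, 0.23 without replicate 1 of either group, and 0.24 in DESeq2 and 0.30 in limma-voom without saline replicate 1. Mcm5 (0.04) was 0.84 without replicate 1 of either group. Leaving out 1 library gave ranges of -0.25 to 0.83 for Mcm5, -0.07 to 0.29 for Pcna, -0.40 to 0.26 for Rrm1, -0.29 to 0.28 for Tyms, -0.85 to 0.29 for Ccne1, -1.53 to 0.01 for Bub1, -1.71 to 0.25 for Hmmr. The lowest count of any of the 35 genes was 29, for Tk1 in poly(I:C) replicate 1, where counting error weighs most.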
